A study of Mus musculus with 25 samples.

Results

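H3K9me3 peaks that the authors annotated as Distal Intergenic on the autosomes, meaning peaks away from gene bodies and promoters in their annotation, were examined in regenerating myofibers of 4 genotypes. Members were the rows of the 12 H3K9me3 peak lists on chromosomes 1 to 19 with that class. Peaks assigned to genes whose symbols start with Zfp, Olfr, Vmn or Taar were left out, as were peaks in windows of chromosomes 2 (175 to 178.5 Mb), 4 (145 to 148 Mb) and 13 (65 to 68 Mb). Of 20998 H3K9me3 peaks, 17669 were autosomal and 10781 of those were Distal Intergenic. The windows removed 1139 of them and the gene names a further 1528, which left 8114 peaks assigned to 2810 gene symbols. In all, the series holds 55242 peaks in 24 lists of H3K9me3 and H3K27me3.

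Trimethylation of lysine 9 on histone H3 marks constitutive heterochromatin. It is written by SUV39H and SETDB1 enzymes and bound by HP1 proteins, and in mouse cells it covers satellite repeats near centromeres, endogenous retroviruses, and clusters of tandemly duplicated genes. KRAB zinc-finger proteins recruit SETDB1 to many of the retroviral copies through TRIM28. Much of the intergenic genome consists of such repeats.

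Chromatin immunoprecipitation sequencing was carried out on Dendra2+ myofibers dissected from tibialis anterior muscles 14 days post injury (dpi), with 3 libraries for each genotype. Mice of every group carried a mito-Dendra2 reporter and a Pax7-Cre(ERT2) driver, and received tamoxifen (75 mg/kg daily for 5 days) and then 50 µL of 1.2% BaCl2 in the muscle. The label of the wild-type group names no further allele. In the mfn2-/- group the gene for mitofusin 2, a protein of the outer mitochondrial membrane, was deleted, and in the vhl-/- group the gene for the protein that directs HIF1α to degradation. HIF1dPA myofibers expressed a HIF1α with proline-to-alanine changes that VHL does not recognise. Because the driver acts in muscle stem cells, nuclei of other origin in a dissected fiber keep their unrecombined alleles. Strain, sex and age of the mice are not given in the sources used here, and the labels do not tie a library to an animal, so p-values measure the spread between these libraries.

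Each list was called on its own library. A peak has a score of 10 times the negative log10 of its p-value, with a lowest value of 50 across the lists, and scores were compared only as ranks within a list because read depth is not known. Peak lists hold no transcripts, so neither the cell type nor the deleted genes could be checked with them. Lists of wild-type libraries stood apart on the X chromosome, with 694 to 762 peaks there against 99 to 182 for mfn2-/-, 44 to 69 for vhl-/- and 59 to 77 for HIF1dPA lists. On the Y chromosome the lists held 15 to 19, 7 to 10, 28 to 40 and 32 to 44 peaks in the same order. Whether a difference between the mice that moves these chromosomes also moves the autosomal peaks was not tested.

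No genome was at hand to read the peaks themselves, but 22 of 31396 autosomal RefSeq promoters (GRCm38.p6, 250 bases before to 50 after a gene's start) overlapped a member. These windows lie wholly or partly in peaks, and 3 are printed for what they hold. The first, upstream of the predicted gene LOC115488002 at chr12:18648740-18649039 (plus strand), lay in peaks of 7 libraries of all 4 genotypes, with scores of 50.4 to 137, and wholly so in 5. Capitals mark a unit of the greatest length among those that recur as often as the commonest 12-base unit, found by sequence on this strand. In this window another unit of equal length recurs as often and is not marked.
LOC115488002: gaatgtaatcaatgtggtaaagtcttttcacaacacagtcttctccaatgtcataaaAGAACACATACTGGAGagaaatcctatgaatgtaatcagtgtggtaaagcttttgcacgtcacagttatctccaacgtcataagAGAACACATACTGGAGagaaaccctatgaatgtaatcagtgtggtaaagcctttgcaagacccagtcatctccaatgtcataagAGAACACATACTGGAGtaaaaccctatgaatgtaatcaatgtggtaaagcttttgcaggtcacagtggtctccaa
The second, of the predicted gene Gm40237 at chr4:118547156-118547455 (plus strand), lay wholly in peaks of 4 libraries, wild-type 2 and 3, vhl-/- 2 and HIF1dPA 2, with scores of 62.7 to 196. Capitals have the same meaning.
Gm40237: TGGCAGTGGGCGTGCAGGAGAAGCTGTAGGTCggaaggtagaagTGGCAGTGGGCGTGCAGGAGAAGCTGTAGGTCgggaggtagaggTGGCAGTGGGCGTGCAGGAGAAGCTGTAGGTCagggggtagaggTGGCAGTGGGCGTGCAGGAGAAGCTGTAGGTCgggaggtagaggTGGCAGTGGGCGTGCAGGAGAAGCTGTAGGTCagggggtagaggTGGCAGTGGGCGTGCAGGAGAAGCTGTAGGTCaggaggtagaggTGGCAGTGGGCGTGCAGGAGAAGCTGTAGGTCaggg
The third, of the long noncoding RNA gene Gm46178 at chr1:191120652-191120951 (plus strand), reached into a region with peaks in the 3 wild-type libraries and in none of the 9 mutant libraries, described below with Batf3. Here capitals mark each CpG dinucleotide.
Gm46178: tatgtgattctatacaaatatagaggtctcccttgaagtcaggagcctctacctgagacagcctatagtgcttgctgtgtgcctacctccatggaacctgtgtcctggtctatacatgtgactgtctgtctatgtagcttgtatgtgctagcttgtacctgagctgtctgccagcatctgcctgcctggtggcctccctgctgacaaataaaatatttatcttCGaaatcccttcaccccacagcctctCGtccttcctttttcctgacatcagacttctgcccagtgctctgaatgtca

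The first window holds the unit AGAACACATACTGGAG 3 times, at steps of 84 bases, and the unit occurs in 3 of the 31396 promoters. Tandem arrays of this kind are known from exons of C2H2 zinc-finger genes; whether this window belongs to one was not tested. The unit of the second window, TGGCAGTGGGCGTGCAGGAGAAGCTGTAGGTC, occurs 7 times at steps of 44 bases. It is present in 2 promoters, which are overlapping windows of Gm40237. A 12-base unit found 3 or more times was present in 4 of the 22 promoters that touch a member, compared with 1.17% of all promoters, and one found 7 or more times in 0.156% of all. The 4 include both overlapping windows of Gm40237, so that array was counted more than once. In CpG content the 3 windows differed, with 2, 10 and 2 dinucleotides in the order printed, around a median of 7 over all promoters. Repeated sequence of this kind limits how reads can be placed, and how reads with several matches were treated is not given in the sources used here.

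H3K9me3 peaks in intergenic sequence were most numerous in wild-type myofibers. The wild-type lists held 972, 1149 and 1047 such peaks, mfn2-/- lists 508, 336 and 662, vhl-/- lists 435, 482 and 574, and HIF1dPA lists 698, 751 and 500. All 9 mutant libraries lay below the lowest wild-type library, and the mutant genotypes overlapped with each other. The number differed across the genotypes (exact permutation test over libraries, p = 0.00994, adjusted p = 0.0258), and mutant lists had 0.507 times as many peaks as wild-type lists by geometric mean (exact two-sided p = 0.00455, the smallest that 3 against 9 libraries can give, adjusted p = 0.0169).

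By genotype, the ratio to wild-type was 0.459 for mfn2-/-, 0.469 for vhl-/- and 0.607 for HIF1dPA myofibers (exact p = 0.1 for each, which is the lower limit for 3 against 3 libraries). The length they covered differed likewise. Peaks spanned 751 ± 48.3 kb in wild-type lists (SD, n = 3), 362 ± 85.2 kb for mfn2-/-, 358 ± 48.3 kb for vhl-/- and 482 ± 109 kb for HIF1dPA lists, a ratio of mutants to wild-type of 0.521 (exact p = 0.00455, adjusted p = 0.0169). These numbers moved with the length of the whole autosomal list, which was 2176 to 2407 peaks in wild-type and 780 to 1588 in mutant libraries. When only the 780 strongest autosomal peaks of every library were used, the ratio of mutants to wild-type was 1.13 (exact p = 0.0864). That setting kept the whole autosomal list of mfn2-/- 2 but only the strongest part of each wild-type list. With scores of at least 100, a fixed cutoff rather than a fixed number, the ratio was 0.405 (exact p = 0.00455).

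Relative to their own lists, intergenic peaks were the majority in every library. They made up 62.5% to 65.3% of the autosomal peaks in wild-type lists after the same exclusions, 60.1% to 64.9% for mfn2-/-, 65.8% to 66.7% for vhl-/- and 64.9% to 68.4% for HIF1dPA lists. All vhl-/- libraries were above all wild-type and mfn2-/- libraries, the HIF1dPA libraries were above those of mfn2-/- and overlapped with the other groups, and the share did not pass the test (exact p = 0.0566 across genotypes, adjusted p = 0.105, and a difference of 1.06 percentage points between mutants and wild-type, exact p = 0.5). It did pass across genotypes under 5 other settings, with the 780 strongest peaks of each library (exact p = 0.00669), scores of at least 100 (exact p = 0.0135), the left-out families and windows kept (exact p = 0.00909), peaks of predicted genes left out (exact p = 0.0201) and peaks that overlap H3K27me3 left out (exact p = 0.0481). With the 780 strongest peaks the share was 6.76 percentage points higher in mutants than in wild-type (exact p = 0.00455). That setting cut the wild-type lists the most, and how far the unequal cut set this difference was not tested.

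**Figure D1:**
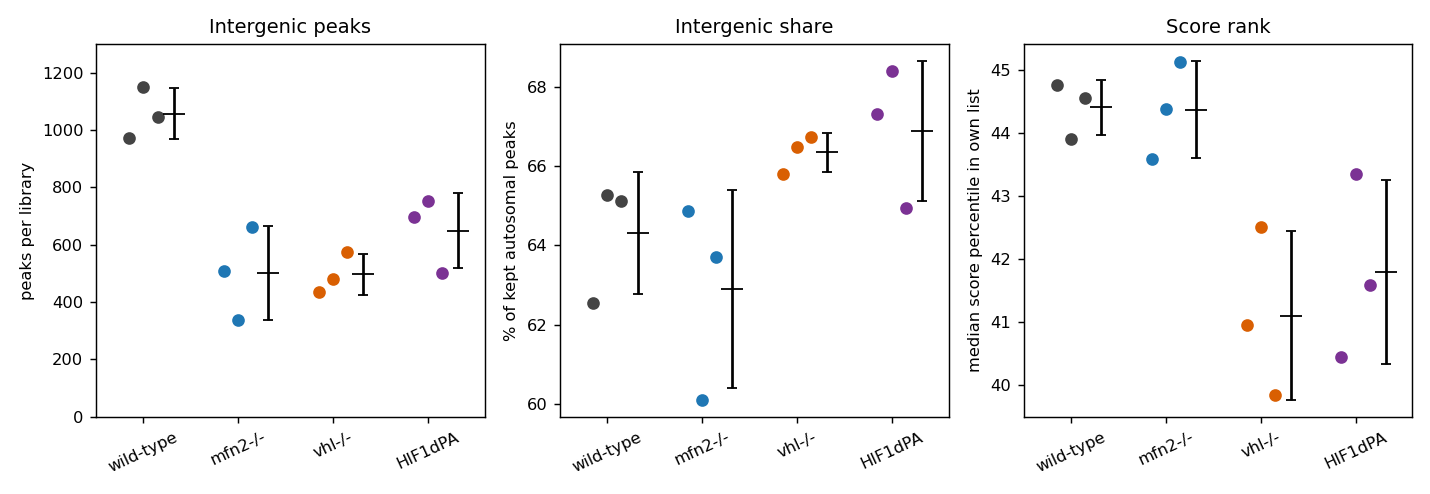
H3K9me3 intergenic peaks in each of the 12 libraries, grouped by genotype, as the number of peaks, their share of the autosomal list in percent and their median score percentile, with points for libraries and black bars for the mean ± SD of 3. The 3 wild-type libraries hold 972 to 1149 peaks and all mutant libraries 336 to 751, and vhl-/- libraries lie above wild-type and mfn2-/- in share and below both in percentile.

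Most of these peaks were narrow and weak. Median width was 566 to 609 bp over the 12 libraries, and 1.21% to 4.46% of a library's peaks reached 2 kb. Sonication had sheared the chromatin to about 500 bp, so the typical peak was little longer than a fragment. Width did not differ across genotypes by the test (exact p = 0.140, adjusted p = 0.203), with a ratio of mutants to wild-type medians of 1.01 (exact p = 0.545). With the 780 strongest peaks of each library the ratio turned to 0.861 (exact p = 0.0136, and 0.0149 across genotypes). Here, too, the wild-type lists were cut the most, and the part this played was not tested. Width also passed across genotypes with scores of at least 100 (exact p = 0.0215) and with the left-out families and windows kept (exact p = 0.0355).

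In rank, the median intergenic peak stood at percentile 43.9 to 44.8 of all autosomal peaks by score in wild-type lists, at 43.6 to 45.1 for mfn2-/-, 39.8 to 42.5 for vhl-/- and 40.5 to 43.4 for HIF1dPA lists. The vhl-/- and HIF1dPA libraries were below all wild-type and mfn2-/- libraries, by at most a few percentiles. The difference across the 4 genotypes passed the test (exact p = 0.0192, adjusted p = 0.0415). It did not between all mutants and wild-type (difference -1.98, exact p = 0.105), nor across genotypes when the left-out families and windows were kept (exact p = 0.401) or when only scores of at least 100 were used (exact p = 0.299).

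Intergenic peaks were a minority among the strongest. The strongest were taken from all autosomal peaks, left-out families and windows included, of which members were 8114 of 17669. Of the 100 autosomal peaks with the highest score, 22 to 24 were members in wild-type libraries, 30 to 37 for mfn2-/-, 16 to 18 for vhl-/- and 18 to 19 for HIF1dPA libraries. The mfn2-/- libraries were above the other 9, and the vhl-/- libraries were at or below HIF1dPA. Scores of at least 100 were reached by 63 to 74 members in wild-type and by 20 to 37 in mutant libraries.

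The most like classes in the same lists are peaks in introns (2513) and promoters (1446), taken with the same exclusions. Intergenic and intron peaks had nearly the same median width, with a mean difference of 2.71 ± 6.58 bp (SD over 12 libraries, exact paired permutation test, adjusted p = 0.263), and nearly the same median percentile (difference 0.912 ± 2.55, exact adjusted p = 0.269). Against promoter peaks, intergenic peaks were narrower in 12 of 12 libraries (mean difference in median width -96.2 ± 61.6 bp) and lower in rank in 12 of 12 (-18.5 ± 5.12 percentiles), each at the lowest exact p that 12 pairs allow, 0.000488 (adjusted p = 0.000977). At scores of at least 100 the comparison with introns changed, since intergenic peaks were then 436 bp wider (exact p = 0.000488).

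Recurrence between libraries was low. Overlapping peaks of the 12 lists merged into 6303 regions, and 5589 of these (88.7%) had a peak in 1 library only. Those single-library regions held 68.9% of all members, and 62.8% to 73.1% of the members of any one library. Regions in 2 libraries numbered 433, in 3 libraries 109, in 4 to 6 libraries 60, 28 and 23, and 84 regions (1.33%) were found in 6 or more. All 12 libraries had a peak in 11 regions, which together held 183 peaks. The share found in 1 library was 87.9% for intron, 75.9% for promoter and 84.3% for all autosomal H3K9me3 regions.

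Peaks of more recurrent regions ranked higher and were wider. The median percentile of a peak by score was 37.2 in single-library regions, 55.1 in regions of 2 to 5 libraries, 76.5 in those of 6 to 11 and 94.7 in those of all 12. Median peak widths in the same order were 579, 644.5, 804.5 and 1052 bp. A score of at least 100 was reached by 0.644% of peaks in single-library regions and by 62.8% of those in regions of all 12 libraries. Where a region had peaks in exactly 2 libraries, both were of the same genotype in 141 of 433 (32.6%), whereas 12 of the 66 library pairs (18.2%) are of the same genotype.

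**Figure D2:**
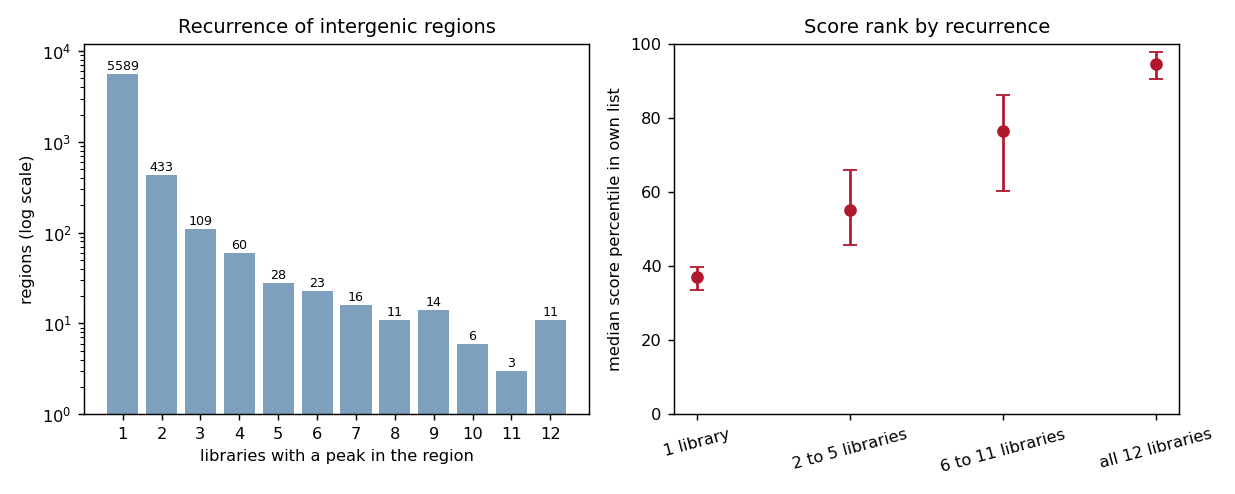
Merged H3K9me3 intergenic regions by the number of libraries with a peak (count on a log axis), and the median score percentile of their peaks, with bars from the lowest to the highest library median. Single-library regions number 5589 and have a median percentile of 37.2, and the 11 regions of all 12 libraries a median of 94.7.

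Libraries of a genotype shared more intergenic sequence than libraries of different genotypes. The Jaccard index, the base pairs that a pair of lists share over the base pairs in either, averaged 0.0807 within genotypes and 0.0478 between them (one-sided exact permutation test, p = 0.000519, adjusted p = 0.00675). Within genotypes it was 0.0915 in wild-type, 0.0927 for mfn2-/-, 0.0720 for vhl-/- and 0.0665 for HIF1dPA pairs. Pairs of a vhl-/- and a HIF1dPA library reached 0.0712, and their range of 0.0592 to 0.0780 overlapped that of the pairs within either genotype. By contrast, mfn2-/- libraries had the lowest overlap with these, 0.0343 with vhl-/- and 0.0320 with HIF1dPA, and 0.0531 with wild-type libraries. In this order vhl-/- and HIF1dPA lay together and mfn2-/- lay apart, and no test was made of it.

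**Figure D3:**
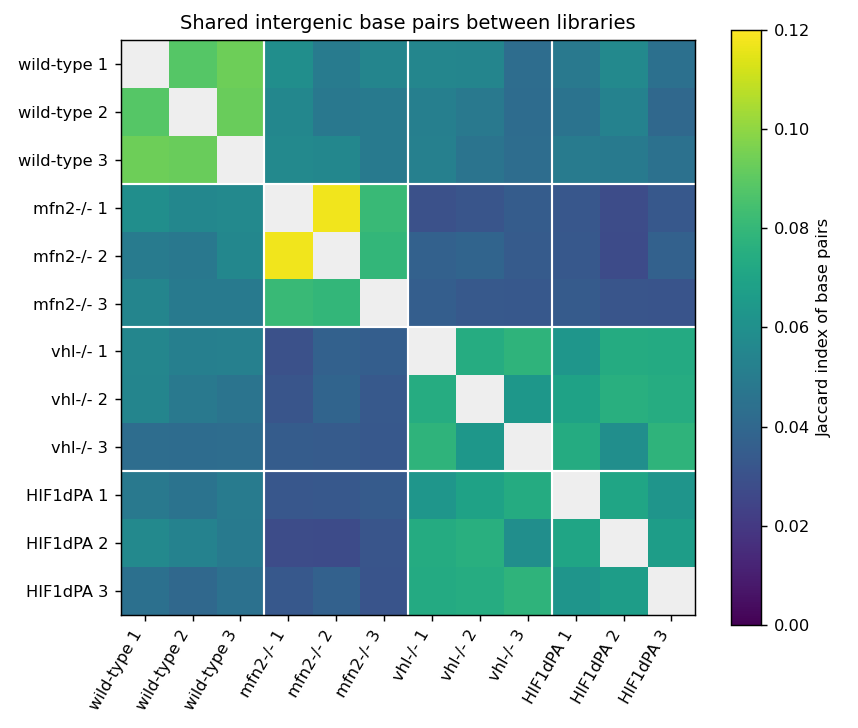
Jaccard index of intergenic H3K9me3 base pairs for each pair of the 12 libraries, in color from 0 to 0.12, with white lines between genotypes. Pairs within wild-type and mfn2-/- are highest on average, and the block of vhl-/- with HIF1dPA (mean 0.0712) overlaps in range with the pairs inside these genotypes.

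The regions named for their recurrence, 10 in number, had peaks in all 12 libraries. The strongest was assigned to Gm5614, a predicted gene, at chr9:35304774-35305924, over the noncoding RNA gene Gm33838 in RefSeq. Its score was 1509, 1483 and 1504 in wild-type, 578, 919 and 1927 in mfn2-/-, 836, 753 and 714 in vhl-/- and 578, 566 and 767 in HIF1dPA libraries. It ranked between position 3 and position 6 in every list, and was the strongest intergenic peak in each of the 6 vhl-/- and HIF1dPA lists and in mfn2-/- 3. Its place was steady while the scores of the lists differed. Another, assigned to Gm9075 at chr12:3109344-3110645, near the first mapped base of that chromosome, ranked 6 to 21.

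In 2 of these regions the mfn2-/- lists had smaller position numbers than all other lists. Positions are places in lists of unequal length, 780 to 1306 autosomal peaks for mfn2-/- and 2176 to 2407 for wild-type. One was assigned to 2010315B03Rik at chr9:124256010-124258437, close to the other end of its chromosome. Its position was 1, 2 and 5 in the mfn2-/- lists, with scores of 1259, 1110 and 1347. In wild-type lists it was at 23, 22 and 24, with scores of 500, 511 and 520, in vhl-/- lists at 33, 13 and 11, and in HIF1dPA lists at 16, 9 and 14. The other, assigned to Dpy19l2, was at 26, 28 and 13 in mfn2-/-, 40, 43 and 37 in wild-type, 36, 30 and 44 in vhl-/- and 82, 77 and 39 in HIF1dPA lists. Relative to list length, mfn2-/- overlapped with wild-type at Dpy19l2, so its smaller positions there are not a higher rank. Since both regions were named for their recurrence and singled out after their positions were seen, no test is given. A second region of 2010315B03Rik, chr9:124268446-124271791, had no such order, with positions of 110, 122 and 21 in mfn2-/- and 84, 102 and 60 in wild-type lists.

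Genes known outside heterochromatin also lent their names to regions of all 12 libraries, at a distance. Chl1, a cell adhesion molecule of the nervous system, was 195391 bp from the region at chr6:103314117-103315193, which held positions 15 to 39. Dpy19l2, needed for sperm head formation, was 14372 bp from chr9:24541623-24542675, and the potassium channel gene Kcnh5 was assigned to chr12:74803747-74804989. The 2 pseudogenes Pisd-ps1 (chr11:3099891-3103429) and Stxbp3-ps (chr19:9606207-9609662) and the placental hormone gene Prl2c3 (chr13:12824385-12842030, 17645 bp of merged peaks) completed the set. An 11th region of all 12 libraries, outside the rule of 10 and named after its values were seen, was assigned to B230307C23Rik on chromosome 16.

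Among the 20 strongest intergenic peaks of each list, 26 regions recurred in 3 or more lists and 6 in all 12. Of these Gm5614, Gm9075, the first 2010315B03Rik region, Chl1, Dpy19l2 and Pisd-ps1 were the 6. Peaks that start in the first 3.3 Mb of a chromosome, the stretch next to the centromere in mouse assemblies, numbered 93 (1.15% of members) on 12 chromosomes and included the highest score of all members, 2962.

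That score belonged to the region named for the strongest wild-type peak, assigned to 9230019H11Rik at chr10:3110937-3115764. It ranked first in all 3 wild-type lists, with scores of 2851, 2962 and 2858 and widths of 4428 to 4827 bp. In mfn2-/- lists the scores were 82.0, 76.6 and 68.2, at positions 163, 166 and 323 and widths of 467 to 756 bp. None of the 6 vhl-/- and HIF1dPA lists had a peak there. Wild-type and mfn2-/- scores did not overlap in this region, which was picked for its wild-type value. A neighboring region with the same gene name, chr10:3109126-3110553, scored 585, 796 and 845 in wild-type lists and 55.0 and 82.0 in mfn2-/- 1 and 3, and had no peak in the other 7.

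Regions with peaks in all libraries of one side and none of the other were rare. Wild-type libraries alone had 13 of 6303 regions (0.206%), against 0.344% of all 11353 autosomal H3K9me3 regions. No member region was in all 9 mutant libraries and absent from wild-type, against 0.0176% of all autosomal regions. Against each mutant genotype by itself, wild-type alone had 46 regions for mfn2-/- (0.730% of members' regions, 1.25% of all), 27 for vhl-/- (0.428%, and 0.722% of all) and 31 for HIF1dPA (0.492%, and 0.74% of all). The reverse counts were 4 (0.0635% of members' regions, against 0.167% of all), 6 (0.0952%, against 0.361% of all) and 7 (0.111%, against 0.44% of all). In every one of these counts the members' share was below that of all autosomal regions. Fewer libraries on the wild-type side gave more such regions, 39 to 41 with any 1 wild-type library left out.

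Of the 13 wild-type regions, the 5 with the highest mean percentile were named. Cdkn1a, which encodes the cell cycle inhibitor p21 that rises as myoblasts leave the cycle, was nearest to chr17:29102747-29103591, 2025 bp away in RefSeq, with scores of 71.6, 131 and 100. Another region assigned to Cdkn1a, chr17:29105766-29107009, is not among the 13. It had peaks in 4 libraries, those of wild-type and otherwise HIF1dPA, and in no mfn2-/- or vhl-/- library. A region assigned to Batf3, a transcription factor of dendritic cells, at chr1:191120807-191121280, scored 79.2, 79.0 and 73.6 and overlaps the Gm46178 promoter printed above. Regions assigned to Mir6356 (chr18:68691571-68692422), Tra2a (chr6:49236070-49237029), a splicing factor, and the pseudogene Gtpbp4-ps5 (chr7:15309390-15311033) scored 58.3 to 159. In rank these 5 were modest, between positions 117 and 1492 of their lists. The other 8 were assigned to C130026I21Rik, Gm3055, 5730507C01Rik, Tcp10c, Speer4e, Gm17019, Apba2 and Gm16302.

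Each mutant genotype was also set against the other 9 libraries. Regions of mfn2-/- alone numbered 3 (0.0476% of members' regions, against 0.0881% of all autosomal regions). They were assigned to Ccdc130, Ankle1 (both on chromosome 8) and Mbnl1, the muscleblind splicing regulator, on chromosome 3, and scored 51.5 to 84.3. No member region was in all libraries of vhl-/- alone or of HIF1dPA alone, against 0.00881% of all autosomal regions for each. With 1 library of the genotype itself left out these counts were 8 to 16 for mfn2-/- (16 without mfn2-/- 2), 3 to 9 for vhl-/- (9 without vhl-/- 1) and 7 to 9 for HIF1dPA (9 without HIF1dPA 3), and with scores of at least 100 the 3 of mfn2-/- were 0. In the opposite direction, 6 regions were in the other 9 libraries and in no mfn2-/- library (0.0952%, against 0.167% of all autosomal regions). Regions absent from vhl-/- alone or from HIF1dPA alone numbered 0 each, against 0% of all. The 6 were 1 with scores of at least 100, 3 without peaks that overlap H3K27me3 and 3 without predicted genes.

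These 6 were assigned to Ly6c2, Gm16505, Fam107a, Tcp10c, Gm24614 and Gm8258, and were chosen after the data were seen. Ly6c2, a surface protein of monocytes and other leukocytes, gave its name to one of the strongest intergenic regions, chr15:75085049-75087539. Its scores were 1600, 942 and 1339 in wild-type, 493, 612 and 402 in vhl-/- and 444, 186 and 480 in HIF1dPA libraries, and no mfn2-/- list had a peak. All 9 libraries placed it among their 20 strongest intergenic peaks. Gm16505 (chr13:3372542-3374038) scored 312 to 443 in wild-type and 53.9 to 153 in vhl-/- and HIF1dPA libraries.

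Regions of a pair of genotypes were counted as well. Wild-type and mfn2-/- libraries, and no other, had peaks in 4 regions (0.0635% of members' regions, against 0.0617% of all autosomal regions). These were assigned to 9230019H11Rik, Gm10354, Gm17019 and Gm21847. The vhl-/- and HIF1dPA libraries alone had 3 (0.0476%, against 0.185% of all). They were assigned to the immunoglobulin heavy chain segments Ighv1-67 and Ighv1-69, to Adam29, a testis-expressed member of the ADAM family, and to Nxpe2. The heavy chain region, chr12:115612128-115619124, scored 89.7, 131 and 102 in vhl-/- and 152, 126 and 156 in HIF1dPA libraries. It also held the widest vhl-/- peak, 6836 bp. These counts were likewise defined after the data were seen. With scores of at least 100 both were 0. The count of 4 was also 0 without predicted genes and 2 with the 780 strongest peaks, and the count of 3 was 1 with those, 5 with peaks within 1000 bp joined and 17 with the left-out families and windows kept.

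The widest peaks of the other genotypes lay among predicted genes. They were 7979 bp at Gm16092 in wild-type (chr1:85497487-85505466), 7619 bp at Gm17019 in mfn2-/- (chr5:15038261-15045880) and 11326 bp at Gm16026 in HIF1dPA libraries (chr1:85289380-85300706), the widest of all. Gm16092 and Gm16026 lie within 1 Mb of each other on chromosome 1, and neither region had a peak in an mfn2-/- library. None of the widest peaks was among the strongest, with scores of 64.7 to 102.

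Per chromosome, intergenic peaks were unevenly spread. Chromosome 12 had the highest density, 0.664 peaks per Mb and library, followed by chromosome 5 with 0.589, and chromosome 11, which is rich in genes, had the lowest, 0.115. In wild-type libraries the density was 1.05 on chromosome 12 and 1.09 on chromosome 5. Chromosome 12 took 11.5% to 12.2% of a wild-type library's intergenic peaks, 8.66% to 11.3% for mfn2-/-, 10.6% to 13.3% for vhl-/- and 11.9% to 13.6% for HIF1dPA libraries. The mfn2-/- libraries were below all wild-type and HIF1dPA libraries and overlapped with vhl-/-, and the share did not pass the test across genotypes (exact adjusted p = 0.197).

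Shares of a list rather than counts were used to compare chromosomes between genotypes, since they take out list length. On 10 of 19 autosomes (52.6%) the share differed across the 4 genotypes (exact permutation tests, adjusted p under 0.05 over the 19), and the same was so for 68.4% of the autosomes with all autosomal H3K9me3 peaks. Between all mutants and wild-type, 0 of 19 passed, with 4 at an unadjusted exact p under 0.05, and 10.5% passed with all autosomal peaks. The 10 were chromosomes 1, 2, 3, 5, 7, 8, 10, 13, 14 and 15. Without wild-type replicate 2 there were 6, and with scores of at least 100 there were 2.

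Chromosome 7 separated the genotypes most clearly. It held 9.98% to 12.5% of intergenic peaks in wild-type, 1.19% to 2.56% for mfn2-/-, 6.27% to 6.67% for vhl-/- and 7.0% to 8.17% for HIF1dPA libraries (exact p = 6.49e-05, the smallest possible, adjusted p = 0.00123). No genotypes overlapped. In numbers, the 3 wild-type lists had 351 intergenic peaks there in 64 windows of 1 Mb, and the 3 mfn2-/- lists 30 in 22 windows. At scores of at least 100 the difference of mfn2-/- from wild-type was -1.0 percentage points, compared with -9.16 in the full lists. The exact test across the 4 genotypes then gave an adjusted p of 0.798.

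Libraries of mfn2-/- myofibers had a larger share of their peaks on chromosomes 3, 8, 10 and 15 than all other libraries. Chromosome 15 held 9.06% to 11% of their intergenic peaks and 1.57% to 3.01% in the other 9 libraries (exact adjusted p = 0.0222), and chromosome 10 held 9.06% to 11% against 2.80% to 4.53% (exact adjusted p = 0.0253). On chromosomes 3 and 8 the mfn2-/- libraries had 8.63% to 10.4% and 4.83% to 7.44%. All adjusted p-values in this paragraph are of the exact test across the 4 genotypes, not of mfn2-/- against another group. Chromosome 5 was the reverse, with 6.50% to 9.67% in mfn2-/- and 10.4% to 16.3% elsewhere. The difference of mfn2-/- from wild-type there, -7.19 percentage points, was -0.189 without the 50 densest windows of 1 Mb (exact adjusted p = 0.333). Chromosomes 3 and 8 did not pass without those windows either (exact adjusted p = 0.150 and 0.0717), and their differences were then 3.34 and 3.90 compared with 4.64 and 3.68. Chromosome 5 also missed the threshold without mfn2-/- 1 (exact adjusted p = 0.0716) and chromosome 8 without wild-type 2 (exact adjusted p = 0.0506). With scores of at least 100, chromosomes 3, 5, 8 and 10 did not pass (exact adjusted p = 0.206, 0.181, 0.417 and 0.0792).

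On chromosome 15 this was a gain in number as well as in share. Although the mfn2-/- lists were shorter, they had 0.471 peaks per Mb there, compared with 0.244 in wild-type lists. On chromosome 10 the means were 0.375 and 0.324, but the counts overlapped, 31 to 60 in mfn2-/- and 37 to 52 in wild-type libraries. The 147 mfn2-/- peaks of chromosome 15 were spread over 55 windows of 1 Mb with at most 11 in one, 93.2% were in single-library regions, and their median score was 56.5. At scores of at least 100 the difference of mfn2-/- from wild-type on chromosome 15 turned to -1.97 percentage points. The mfn2-/- lists held 25 to 37 such peaks over all autosomes. The exact adjusted p of 0.0222 at this cutoff is of the test across the 4 genotypes, not of this difference. The higher share thus rested on peaks near the lowest score in the lists.

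Intron peaks of the same lists were distributed likewise on chromosome 15, with 7.57% to 12.9% in mfn2-/- and 0.658% to 4.85% in the other libraries. On chromosome 7 their share was lowest in mfn2-/- (3.04% to 4%). There wild-type (7.25% to 12.1%), vhl-/- (5.83% to 11.2%) and HIF1dPA libraries (5.07% to 11.4%) overlapped, unlike for intergenic peaks. H3K27me3 intergenic peaks, 9562 by the same rule in the lists of the other mark, had no such order on chromosome 15. It took 2.35% to 3.57% of them in mfn2-/- and 2.38% to 3.23% in wild-type libraries (exact adjusted p = 0.924). For that mark no chromosome passed the exact test across genotypes (lowest adjusted p = 0.0759). Few members overlapped an H3K27me3 peak of their own genotype, 0.789% in wild-type, 1.39% for mfn2-/-, 1.41% for vhl-/- and 0.924% for HIF1dPA lists.

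**Figure D4:**
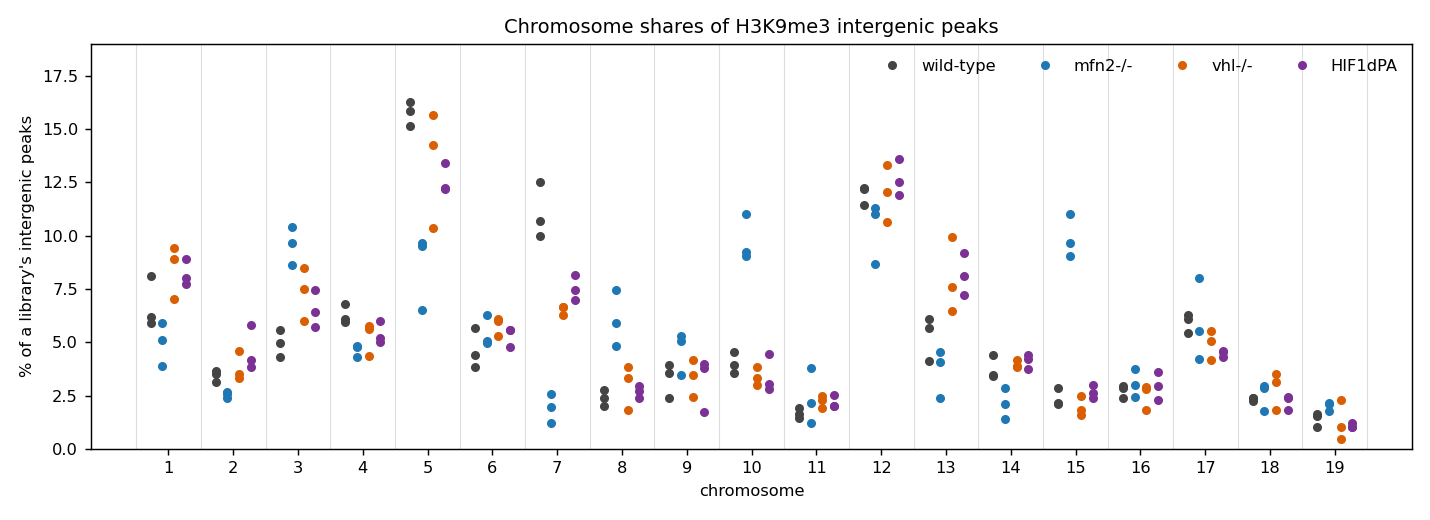
Share of each library's intergenic H3K9me3 peaks on each autosome, in percent, with a point for each of the 12 libraries and colors for genotypes. On chromosome 7 wild-type libraries are highest (9.98% to 12.5%) and mfn2-/- lowest, and on chromosomes 10 and 15 the 3 mfn2-/- libraries are above all others.

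Within chromosomes, the first 10 Mb, the end near the centromere, took 5.74% to 8.66% of intergenic peaks in the 12 libraries. That stretch is 7.72% of the length of the chromosomes, or 5.53% when length is counted from 3.0 Mb, where the lowest peak of any autosome starts. Of the 12 libraries, 1 was above the first value and 12 were above the second. The share did not differ across genotypes by the test (exact p = 0.722) or between mutants and wild-type (difference 0.398 percentage points, exact p = 0.568). The first 20 Mb, 15.4% of the length or 13.4% counted from that base, held more than either in 12 of 12 libraries. There the share was 24.7% ± 0.631 in wild-type (SD, n = 3), 20.8% ± 2.09 for mfn2-/-, 18.8% ± 1.20 for vhl-/- and 19.8% ± 1.90 for HIF1dPA libraries, a difference of -4.94 percentage points between mutants and wild-type (exact p = 0.00455).

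Peaks were concentrated in a small number of 1 Mb windows. Members occurred in 1563 of 2470 windows (63.3%), and the 50 densest windows, 2.02% of all, held 2846 members (35.1%). That share was 39.9% ± 1.84 in wild-type (SD, n = 3), 22.7% ± 2.64 for mfn2-/-, 36.8% ± 1.44 for vhl-/- and 35.8% ± 0.490 for HIF1dPA libraries. The windows were ordered by these same peaks, so the values are a description, in which mfn2-/- libraries lay well below the rest.

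The densest window, at 94 to 95 Mb of chromosome 5, held 209 peaks in 150 regions, assigned to the predicted gene Gm6205 and to Prame-like genes such as Pramel41 and Pramel42, a germline-expressed family in tandem array. Wild-type libraries had 42, 31 and 29 peaks there, vhl-/- 10, 5 and 27, and HIF1dPA 22, 25 and 18. The mfn2-/- libraries had none. As a share of the list the window did not pass the test (exact adjusted p = 0.108).

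Of 135 windows with at least 12 members, 9 (6.67%) differed across genotypes in their share of a list at an adjusted exact p under 0.05, and 44 at an unadjusted one, compared with 17.9% of the windows called with all autosomal peaks. This test was added after the data were seen. The number called was 5 without wild-type 2, 0 without mfn2-/- 1, mfn2-/- 2 or HIF1dPA 3, 2 without mfn2-/- 3 and 14 without vhl-/- 2. With windows of 0.5 Mb it was 16 and with 2 Mb it was 0, so single windows are best read as counts.

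In 4 of the 9 windows mfn2-/- libraries held no peak. At Tcp10c on chromosome 17 (13 to 14 Mb), in the t-complex region, peaks numbered 15, 17 and 26 in wild-type, 0, 0 and 0 in mfn2-/-, 2, 1 and 1 in vhl-/- and 1, 5 and 2 in HIF1dPA libraries. At Pramel36 on chromosome 5 (93 to 94 Mb) they numbered 16, 11 and 16, then 0, 0 and 0, then 3, 3 and 4, and 4, 7 and 6. The other 2 such windows were led by Gm16387 (20 peaks) and Gbp11 (13 peaks), a guanylate-binding protein gene of the interferon response. As a share of the list the Gbp11 window was 0.219% in wild-type and 0.251% in HIF1dPA libraries by mean. The window of Thoc2l on chromosome 5 (151 peaks) held a mean share of 2.12% in wild-type, 0.632% for mfn2-/-, 2.54% for vhl-/- and 1.81% for HIF1dPA libraries, and that of Gtpbp4-ps5 on chromosome 7 (60 peaks) 1.25%, 0.0656%, 0.516% and 0.553%. Both were lowest in mfn2-/-, and the second was highest in wild-type libraries.

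Another pair of windows, neighbors on chromosome 5, divided the genotypes otherwise. At Gm17019 (15 to 16 Mb) wild-type libraries had 11, 8 and 15 peaks and mfn2-/- 7, 8 and 10, whereas vhl-/- had 0, 0 and 0 and HIF1dPA 0, 1 and 0. At Gm10354 (14 to 15 Mb) there were 6, 5 and 6 and then 4, 4 and 4, with none in the 6 vhl-/- and HIF1dPA libraries. The opposite order was seen at the immunoglobulin heavy chain locus on chromosome 12 (115 to 116 Mb), which had 3, 3 and 1 peaks in wild-type, 0, 1 and 1 in mfn2-/-, 15, 18 and 17 in vhl-/- and 17, 27 and 21 in HIF1dPA libraries (exact adjusted p = 0.0627). Finally, AU041133 on chromosome 10 (82 to 83 Mb) had more in mfn2-/- (14, 12 and 12) than in wild-type libraries (7, 8 and 5; exact adjusted p = 0.0877).

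**Figure D5:**
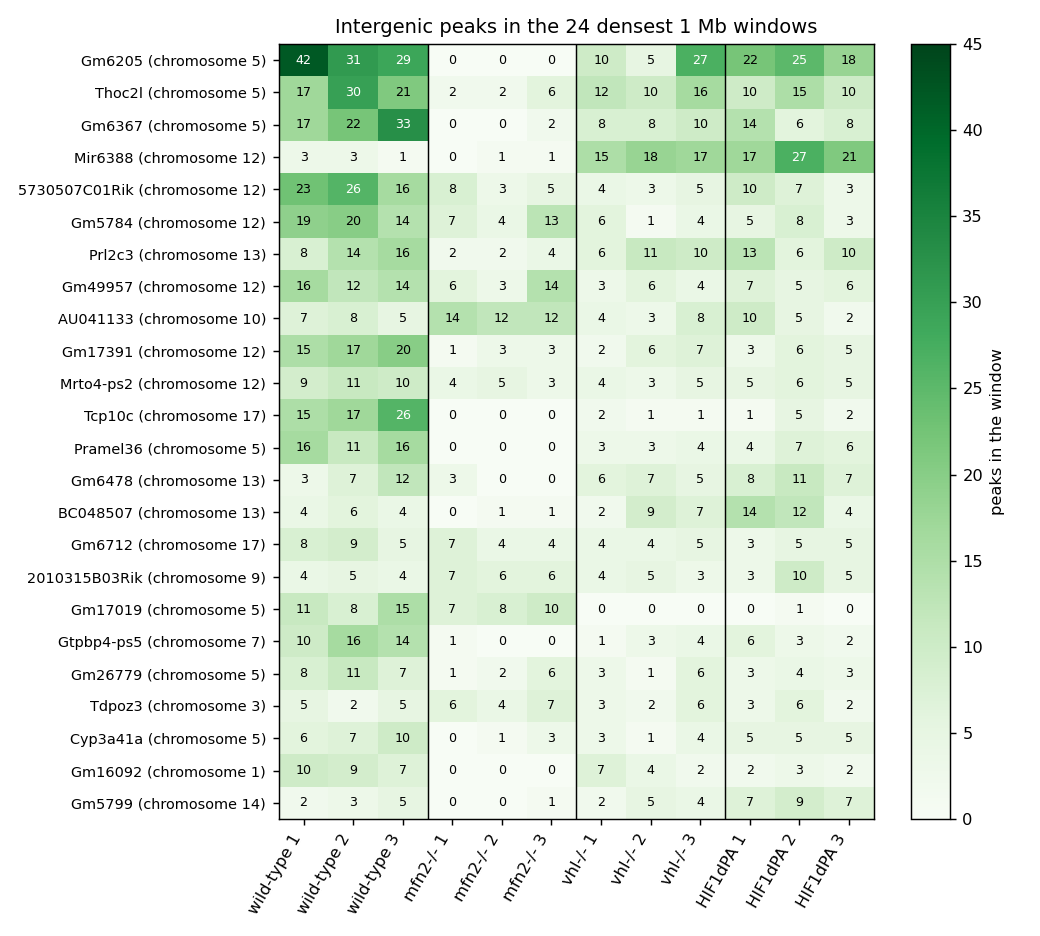
Number of intergenic H3K9me3 peaks in the 24 densest 1 Mb windows (one per line, named by leading gene and chromosome) for each of the 12 libraries (columns, with black lines between genotypes), printed and shaded from 0 to 45. Windows led by Gm6205, Tcp10c and Pramel36 have no peak in mfn2-/- libraries, the one led by Gm17019 has at most 1 in a vhl-/- or HIF1dPA library, and the heavy chain window (Mir6388) is highest in the latter genotypes.

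By the gene to which they were assigned, 3474 members (42.8%) belonged to predicted genes with Gm symbols and 528 (6.51%) to Riken cDNA genes. For intron peaks of the same lists the first share was 14.9%. The authors' class did not always hold against RefSeq, since 1967 members (24.2%) overlapped a RefSeq gene. The median distance to a protein-coding RefSeq gene was 35.7 ± 3.62 kb in wild-type (SD, n = 3), 48.2 ± 12.0 kb for mfn2-/-, 56.6 ± 1.62 kb for vhl-/- and 57.6 ± 3.31 kb for HIF1dPA lists. Wild-type intergenic peaks were thus the nearest to coding genes on average, with mfn2-/- 2 (37.6 kb) inside the wild-type range.

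Gene families in tandem clusters were looked at through 33 lists of gene names, of which 18 had at least 12 peaks and 4 (22.2%) differed across genotypes in their share of a list. These lists were made with the data in view. With the 780 strongest peaks of each library or with scores of at least 100, 1 family passed, the immunoglobulin heavy chain in both cases (exact adjusted p = 0.00286 and 0.00519). Prame genes had 44, 46 and 48 peaks in wild-type, 2, 2 and 2 in mfn2-/-, 7, 8 and 18 in vhl-/- and 21, 24 and 18 in HIF1dPA libraries, or 4.37% ± 0.320, 0.430% ± 0.150, 2.13% ± 0.867 and 3.27% ± 0.302 of a list (SD, n = 3, exact adjusted p = 0.00234, and 0.134 with the 780 strongest peaks). Secretoglobins, small secreted proteins of glands, had 12, 16 and 14 peaks in wild-type and 1 to 5 in each mutant library (exact adjusted p = 0.00623, and 0.494 with the 780 strongest peaks). Ceacam and pregnancy-specific glycoprotein genes had 5, 6 and 7 in wild-type, 0 in every mfn2-/- and 0 or 1 in the other libraries (exact adjusted p = 0.00468), with fewer than 12 peaks left for a test at either setting.

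The fourth family moved the other way. Immunoglobulin heavy chain segments had 2, 7 and 6 peaks in wild-type, 2, 2 and 3 in mfn2-/-, 17, 18 and 18 in vhl-/- and 26, 32 and 24 in HIF1dPA libraries, or 0.463% ± 0.223, 0.481% ± 0.104, 3.59% ± 0.405 and 4.26% ± 0.538 of a list (SD, n = 3, exact adjusted p = 0.00847). Light chain segments, a separate locus, were even, with 5 to 9 peaks in wild-type and 2 to 7 in all other libraries. The prolactin family had 122 peaks (exact adjusted p = 0.101), cytochrome P450 genes 82 (adjusted p = 0.101, exact) and zinc-finger genes with names such as Zscan4f 36 (adjusted p = 0.101, exact). Lists of genes of muscle contraction and myogenesis, of HIF1α targets (Vegfa, Slc2a1, Pdk1, Ldha, Pgk1, Bnip3, Egln3, Car9, Adm, Ankrd37, Hk2 and Ndrg1), of C-type lectins and of H2 genes had 0 peaks. P4ha2, a collagen prolyl hydroxylase gene known as a HIF1α target and not on that list, gave its name to a region at chr11:54139914-54141176. It had peaks in 8 libraries, the 3 wild-type ones and otherwise vhl-/- or HIF1dPA, and in no mfn2-/- library. This region was picked after the data were seen, from the 46 of wild-type against mfn2-/-. On a list of enzymes and cofactors that write or remove the mark, Setdb1 alone had a peak, in mfn2-/- 1, with a score of 73.2. Genes of proteins that bind the mark, such as HP1, were not on the list.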

How the data were processed

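Chromatin of regenerating myofibers was immunoprecipitated with an H3K9me3 antibody (Abcam ab8898) in 3 libraries per genotype. The authors called peaks in each library and deposited lists with a score of −10 × log10 p, a gene and an annotation class. The submitters' processing notes name BWA 0.7.5, MACS, deepTools 3.5.0 and mm10, and the use of the input, duplicate reads and exclusion lists is not given in the sources used here. Coordinates are as deposited, and 63.8% of promoter peaks lay within 2 kb of an end of their RefSeq gene (GRCm38.p6). Read depth is unknown, so no counting interval was computed. An input library was not used, and H3K27me3 lists served for comparison.

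Members were selected with Python 3.11.15 (numpy 2.4.6, pandas 2.3.3, matplotlib 3.10.9). Peaks overlapping by 1 bp or more were merged into regions. Genotypes were compared by exact permutation over libraries, across 4 genotypes (369600 arrangements) and 3 against 9 (220), two-sided, except for the one-sided test of the Jaccard index. The 13 planned tests were adjusted together (Benjamini-Hochberg), and chromosomes, windows and families each within their set. Scripts were tested on simulated data. Regions named were the 10 in most libraries, up to 5 separating wild-type from all mutants, up to 3 of 1 genotype, and the widest and strongest peak of each genotype. Members, lists and tests were chosen with earlier results of these data known. Other cutoffs, exclusions, overlaps, window sizes, a replicate block and leaving out each library were tried. Replicate numbers did not pair the libraries.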

Additional observations from a re-analysis of the deposited data

Results flagged for a closer look

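Of 61 values looked at, 2 set mutant genotypes on opposite sides of wild-type. Every library of 1 mutant genotype was above all wild-type libraries, and every library of another was below them all. The share of intergenic H3K9me3 peaks on chromosome 2 was 3.44% ± 0.258 in wild-type libraries (SD, n = 3), 4.61% ± 1.04 in HIF1dPA and 2.54% ± 0.161 in mfn2-/- libraries, so that the mutant genotypes lay 2.07 percentage points apart. In the window of Gm5799 on chromosome 14 (43 to 44 Mb) the share was 0.315% ± 0.144 in wild-type, 1.20% ± 0.199 in HIF1dPA and 0.0504% ± 0.0872 in mfn2-/- libraries, 1.15 percentage points apart. These differences between mutant genotypes were not tested. With 3 libraries in a group, no library was examined as an outlier.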

How the results depend on the processing

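Peak number and covered length kept their direction and passed the test under all settings except equal list length, the similarity of lists under all settings tried, and the lower rank and smaller width of intergenic than promoter peaks likewise. Equal list length, the 780 strongest autosomal peaks of each library, gave a ratio of mutants to wild-type of 1.13 for number and 0.939 for length (exact p across genotypes 0.143 for length), a width ratio of 0.861 (across genotypes 0.0149), a difference in share of 6.76 (across genotypes 0.00669) and of -0.0584 in the first 10 Mb. Regions of wild-type alone were then 4, and 20, 8 and 9 against mfn2-/-, vhl-/- and HIF1dPA, with 2 of mfn2-/- alone, 4 chromosomes passing between mutants and wild-type, 18 windows and 1 family.

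With scores of at least 100, exact p-values across genotypes were 0.0135 for the share, 0.0215 for width, 0.299 for percentile and 0.0063 for the first 10 Mb. Regions of wild-type alone were 5, and 12, 7 and 6 against each mutant, the reverse being 0, 0 and 2. Chromosomes that passed were 2 and families 1, intergenic peaks were 436 bp wider than intron peaks and -3.87 percentiles apart in rank, and chromosome 15 differed by -1.97 percentage points between mfn2-/- and wild-type. With the left-out families and windows kept, p-values were 0.00909 for share, 0.0355 for width and 0.401 for percentile, whose difference became 0.553. Regions of all mutants alone were then 2, those of mfn2-/-, vhl-/- and HIF1dPA against wild-type 9, 33 and 43, chromosomes between mutants and wild-type 3 and windows 22. Without predicted genes the p for share was 0.0201 and its difference -1.22, and wild-type regions were 8, 26, 11 and 13. Without peaks that overlap H3K27me3 the p for share was 0.0481. A 50% overlap left 2 regions of mfn2-/- against wild-type. In the first 20 Mb the p was 0.0129 and the difference -4.94. Windows of 0.5 and 2 Mb gave 16 and 0 calls, and leaving out the 50 densest windows gave 6 chromosomes. Causes of these changes were not tested.

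Replicate numbers were checked as a pairing and did not hold, since same-numbered libraries correlated in their deviations at a mean of -0.0318 (-0.384 to 0.411, 18 pairs, 5 over 0.1) against 0.0126 for different numbers. With the replicate block, 2 chromosomes (3 and 7) and 0 windows passed, chromosomes 5, 8, 10 and 15 no longer did, the immunoglobulin heavy chain family had an adjusted p of 0.0625, and no other of the planned comparisons over libraries changed its call.

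Leaving out each library in turn gave exact p-values across genotypes of 0.0405 to 0.124 for the share and 0.0456 to 0.616 for width, and a percentile difference of -2.32 to -1.66. Regions ranged from 13 to 41 for wild-type alone, from 45 to 89 against mfn2-/-, 26 to 70 against vhl-/- and 30 to 73 against HIF1dPA, and in the reverse direction from 4 to 20, 6 to 18 and 6 to 28, since a side with fewer libraries is easier to fill. Chromosomes ranged from 6 to 11 and windows from 0 to 14. Depth is unknown, so a peak absent from a list may lie just under its lowest score, and reads in near-identical repeats may be placed at any copy.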
